A study of Saccharomyces cerevisiae with 6 samples.

Results

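The Tra1 mutant M1 was set against the wild type (WT) of budding yeast, gene by gene, with 2 arrays of each. The study held 6 arrays in 3 groups, so 4 of the 6 arrays carry the comparison, and the other 2, of a further Tra1 mutant called M8, enter only the estimate of the spread and a few values given beside M1. Genes were taken where the platform table assigned a probe set to a single gene, and where a gene had several such probe sets the one with the highest mean over the 6 arrays stood for it. This gave 5656 genes. The M1 strain carries a mutant Tra1 that the labels call GID, for Gal4 interaction defective, and the WT strain is described only as wild type. The sources used here do not give the amino acid changes of M1, nor whether the mutant gene is the only copy of TRA1 in the cell. All cells, M1 and WT alike, grew untreated in YPD, a rich medium with glucose, and total RNA of whole cells was amplified from the 3′ end of transcripts and labelled with biotin. Nothing in the labels says that the duplicates were separate cultures, so the p-values reflect just the spread between arrays, and that spread may be technical.

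Tra1 is a very large scaffold protein of the family of phosphatidylinositol 3-kinase-related kinases (PIKK), although it has no kinase activity. It is the subunit shared by SAGA and NuA4, the histone acetyltransferase complexes that activator proteins bring to promoters, and it is the surface that activators contact. Gal4, the activator of the galactose genes, recruits SAGA through Tra1 when galactose is present, and glucose keeps Gal4 targets repressed.

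Levels are given on the log2 scale of the deposited table, on which a difference of 1 is a 2-fold change. Array medians lay between 6.48 and 6.52, and such a scaling hides a change of all messages at once. The M1 duplicates stood apart from each other. Over the 5656 genes, replicate 2 minus replicate 1 had an SD of 0.35 in M1, against 0.20 in WT and 0.14 in M8. A difference of at least 0.5 between duplicates was found for 760 genes in M1 (13.4%), 95 in WT (1.68%) and 22 in M8 (0.389%). M1 replicate 1 correlated with M1 replicate 2 at r = 0.986 across genes and with the WT arrays at 0.993 and 0.992, while M1 replicate 2 correlated with the WT arrays at 0.991 and 0.985. Genes share their array, so these correlations are descriptions. Each M1 array is therefore shown separately below, replicate 1 before replicate 2.

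Limma, fitted over all genes and 6 arrays, called 0 of 5656 genes between M1 and WT at an adjusted p under 0.05 (0%), and the smallest adjusted p was 0.05004. An ordinary linear model also called 0. At an unadjusted p under 0.05, limma had 289 genes higher in M1 (5.11%) and 196 lower (3.47%), where about 283 in all would pass by chance. The groups share 1 estimate of the spread in this fit, and the M8 duplicates, which differ least, enter it. With the M1 and WT arrays alone, 163 genes were higher and 100 lower, so the excess over chance depends on the arrays that set the spread. The counts for gene lists below come from the fit over 6 arrays. Both M1 arrays lay above both WT arrays for 1245 genes (22.0%) and below both for 764 (13.5%). Subtracting each array's median instead turned these counts to 1043 and 976, and the counts at an unadjusted p to 235 higher and 249 lower, so the excess of higher genes depends on the scaling. The gap between the nearest M1 and WT arrays reached 0.5, which is 1.41-fold, for 18 genes above WT (0.318%) and 9 below (0.159%). Mean differences reached 2-fold for 5 genes higher in M1, which were PDH1, RDS1, RDN5-3, NCE103 and HSP82, and for 2 lower, YDR034C-A and HSP30.

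The fit with 1 M1 array left out shows how far the calls rest on a single array. The fits without replicate 1 and without replicate 2 use the same WT and M8 arrays, so calls they share are not independent. Without M1 replicate 1, limma called 137 genes higher and 245 lower, and without M1 replicate 2 it called 25 higher and 37 lower, with the lone M1 array assumed to vary like the other groups. The fits shared 23 calls, which is 6.02% of the 382 made without replicate 1 and 37.1% of the 62 made without replicate 2. Of the shared calls, 13 were higher in both, namely DLD3, HSP78, HSP82, LYS9, NCE103, PDH1, PGM2, PYC1, RDN5-3, RDS1, YAR068W, YER079W and YOL164W-A. CLB1, COA2, HSP30, IZH2 and YDR034C-A were lower in both, and MPT5, RDN18-1, RDN37-1, SUF17 and VLD1 had opposite signs.

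**Figure D1:**
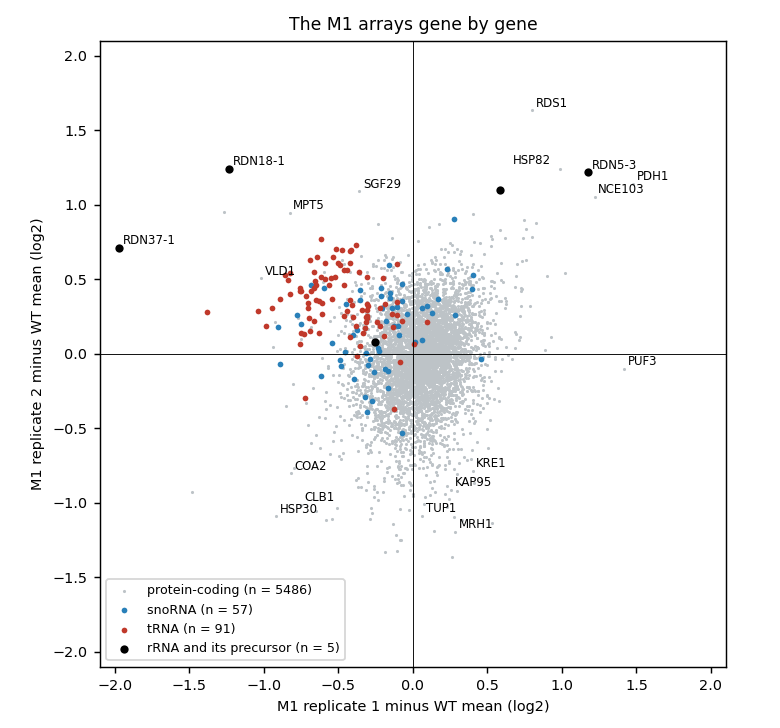
Each point is 1 gene, with M1 replicate 1 minus the WT mean on the horizontal axis and M1 replicate 2 minus the WT mean on the vertical axis, both in log2. PDH1, NCE103, HSP82 and RDN5-3 lie high on both axes and HSP30 low on both, while most of the 91 tRNA genes lie left of 0 in replicate 1 and above 0 in replicate 2.

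The mutated gene itself was read by 13 probe sets. The brightest gave 8.49 and 8.79 for TRA1 in M1, against 8.41 and 8.11 in WT, a difference of 0.38 (SE 0.17; limma, adjusted p = 0.599). The M1 arrays lay above the WT arrays there. Over the 13 probe sets the difference ranged from -0.04 to 0.44, 11 were higher and 2 lower, and the median was 0.03 in M1 replicate 1 and 0.31 in replicate 2. The array measures the amount of TRA1 message and not its sequence, so it does not check the mutation.

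The 10 Gal4 targets, which are the galactose genes together with GCY1, PCL10, MTH1 and FUR4, showed little difference between M1 and WT in glucose medium. GAL4 read 4.84 and 4.60 in M1, against 4.77 and 4.62 in WT. GAL1, galactokinase, read 4.36 and 4.58 in M1, against 4.31 and 4.25 in WT, and GAL10, the epimerase of the pathway, read 4.21 and 4.53 in M1, against 4.54 and 4.59 in WT. For GAL4 the arrays overlapped, GAL1 lay higher in both M1 arrays and GAL10 lower in both. GAL1, GAL10, GAL7 and GAL3 were dim, with mean levels at percentiles 7.55 to 8.47 of all genes. At such levels a small difference, or none, says little about these genes. GAL7, the transferase, differed by -0.16, GAL2, the galactose permease, by 0.06, GAL80, the Gal4 inhibitor, by -0.05 and GAL3, the galactose sensor, by -0.02 (SE 0.12 to 0.18). The exception in size was GCY1, an aldo-keto reductase with a Gal4 site, at 7.50 and 7.55 in M1, against 7.03 and 7.05 in WT (0.49, SE 0.11; limma, adjusted p = 0.325). Over the list the median was -0.10 (-0.05 in replicate 1, -0.10 in replicate 2). With an unadjusted p below 0.05, 1 gene was higher and 0 lower, beside 5.11% and 3.47% of all genes. The arrays did not overlap for 2 genes higher and 5 lower, beside 22.0% and 13.5% of all genes.

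Genes of the complexes that hold Tra1 read much the same in M1 and WT. The 17 measured SAGA subunits had a median of -0.01 and the 12 NuA4 subunits of 0.04, with 0 members of either with an unadjusted p below 0.05. SGF29, which reads methylated histone H3 within SAGA, was the exception between duplicates, at 4.60 and 6.05 in M1, against 5.01 and 4.92 in WT. It lay below WT in replicate 1 and above WT in replicate 2, and its mean level was at percentile 13.4 of all genes. The PIKK kinases and the factors that help fold and assemble them, 10 genes, had a median of 0.09, and TTI2 of the Tel2-Tti1-Tti2 assembly complex was the member with an unadjusted p below 0.05 (0.31, SE 0.12).

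The gene with the largest difference was PDH1, the 2-methylcitrate dehydratase of mitochondrial propionate breakdown. It read 8.16 and 7.82 in M1, against 6.76 and 6.59 in WT (1.31, SE 0.15, or 2.48-fold; limma, adjusted p = 0.05004). NCE103, carbonic anhydrase, which supplies bicarbonate to carboxylases, read 9.28 and 9.11 in M1, against 8.03 and 8.09 in WT (1.14, SE 0.12; limma, adjusted p = 0.05004). In both genes the lower M1 array stood more than 1 log2 unit above the higher WT array, by 1.05 for PDH1 and 1.02 for NCE103. HSP82, the inducible Hsp90, read 10.02 and 10.28 in M1, against 9.04 and 9.03 in WT (1.11, SE 0.13; limma, adjusted p = 0.0628). RDS1, a zinc cluster transcription factor linked to drug sensitivity, read 5.01 and 5.84 in M1, against 4.24 and 4.18 in WT (1.22, SE 0.24). The M1 arrays of RDS1 were far apart and still lay clear of WT. RDN5-3, a 5S ribosomal RNA copy, read 9.24 and 9.28 in M1, against 8.21 and 7.92 in WT (1.195, SE 0.13; limma, adjusted p = 0.05004). PDH1, NCE103 and RDN5-3 were not called, and whether they pass depends on the setting. All 3 were called with median centring, with dim genes left out, with the mean of a gene's probe sets, with eBayes with trend and robust, and with the M1 numbers crossed as a block. The smallest adjusted p of any gene in limma was 0.2297 with the M1 and WT arrays alone and 0.237 with the replicate number as a block, and it was 0.2198 in an ordinary linear model over all genes.

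The 12 genes with the smallest p in the higher direction also include the chaperone genes HSP78, SIS1 and HSP104, described with their lists, and the metabolic genes PGM2 and NNR2. PGM2, the major phosphoglucomutase, read 7.92 and 8.07 in M1, against 7.24 and 7.10 in WT (0.82, SE 0.12). NNR2, a dehydratase that repairs damaged NADH and NADPH, read 8.31 and 8.47 in M1, against 7.73 and 7.65 in WT (0.70, SE 0.13). Outside these 12, PYC1, a pyruvate carboxylase and so a user of bicarbonate, read 10.05 and 9.67 in M1, against 9.16 and 9.14 in WT (0.71, SE 0.14). None of these M1 arrays overlapped the WT arrays. FMP40, a mitochondrial AMPylating enzyme, differed by 0.65. So did YOL164W-A, an uncharacterised gene with a mean level at percentile 10.7 of all genes. YAR068W, a putative membrane protein with a near-identical copy elsewhere in the genome, read 7.97 and 8.01 in M1, against 7.22 and 7.26 in WT, from a probe set type that can match several transcripts. The carboxylase and carbonic anhydrase list was chosen with earlier results of these data known. Its 6 measured genes all had positive differences, from 0.10 (URA2) to 1.14 (NCE103). With an unadjusted p below 0.05, 2 were higher, NCE103 and PYC1, and 0 lower, beside 5.11% and 3.47% of all genes. PYC2, the second pyruvate carboxylase, differed by 0.14 and ACC1, acetyl-CoA carboxylase, by 0.17.

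On the lower side HSP30 led. It encodes a plasma membrane protein that restrains the proton pump, and read 7.53 and 7.36 in M1, against 8.38 and 8.52 in WT (-1.01, SE 0.13, or 2.01-fold lower; limma, adjusted p = 0.0706). COA2, a cytochrome oxidase assembly factor, read 7.23 and 7.24 in M1, against 8.05 and 8.05 in WT (-0.81, SE 0.13). CLB1, a mitotic B-type cyclin, read 6.25 and 5.99 in M1, against 6.88 and 7.13 in WT (-0.88, SE 0.14). For these 3 genes the duplicates lay within 0.3 of each other and the groups did not overlap. SUR7, an eisosome protein of the plasma membrane, read 9.50 and 9.10 in M1, against 10.10 and 10.20 in WT (-0.85, SE 0.15). IZH2, a membrane protein of zinc homeostasis, read 8.02 and 8.10 in M1, against 8.69 and 8.72 in WT (-0.64, SE 0.11). In SUR7, M1 replicate 2 lay below replicate 1 by more than the WT duplicates differed. The same held for STP4, a zinc finger protein, at 7.54 and 7.01 in M1, against 8.10 and 8.14 in WT.

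The remaining genes by smallest p on that side included membrane and surface proteins. RSB1, a membrane protein protecting from sphingoid long-chain bases, differed by -0.60 (SE 0.12), WSC4, a relative of the cell wall stress sensors, by -0.63 (SE 0.13), and DFG10, an enzyme of dolichol synthesis, by -0.56 (SE 0.12). The uncharacterised YNL046W differed by -0.61 (SE 0.11). YFL067W, an uncharacterised gene, was lower at all 5 of its probe sets, from -0.85 to -0.41. Most of these are of a type that can match several transcripts. YDR034C-A had the largest difference downward at its brightest probe set, 7.38 and 7.93 in M1, against 9.16 and 8.57 in WT, but 5 of its 7 probe sets were higher in M1 and 2 lower.

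**Figure D2:**
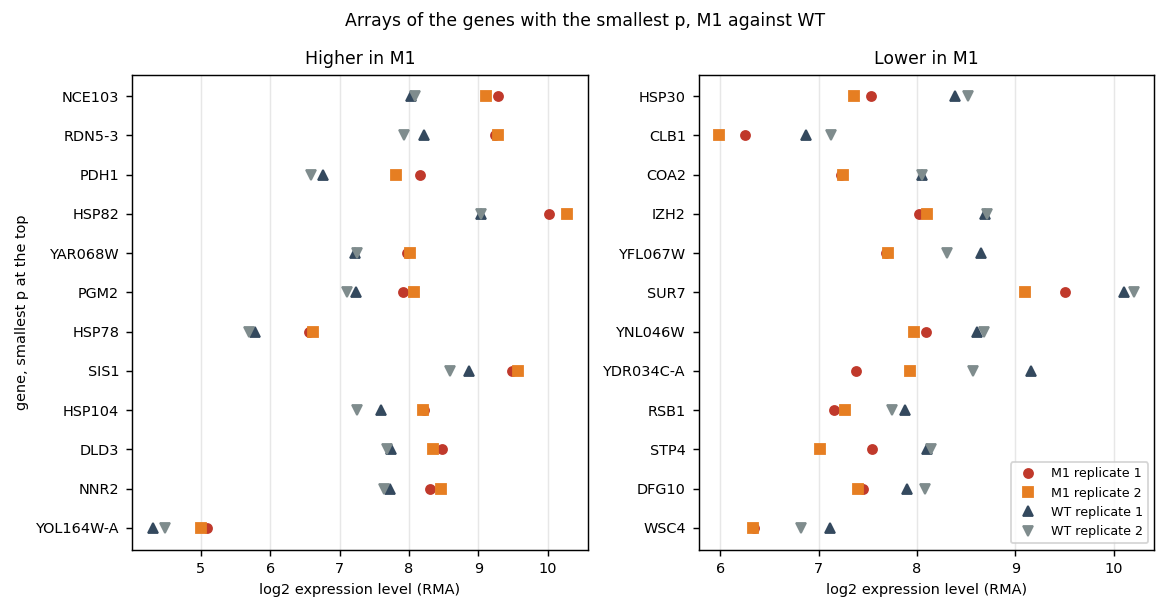
Log2 expression level (horizontal axis) in each array for the 12 genes with the smallest limma p in each direction among those whose arrays do not overlap, with red circles and orange squares for M1 replicates 1 and 2 and triangles for WT. No M1 array lies within the WT arrays in the genes drawn, and the nearest arrays are 1.03 apart in RDN5-3.

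Many chaperone genes lay above WT. Over the 52 genes of 5 chaperone lists, 17 were higher and 1 lower with an unadjusted p below 0.05. Over all genes these shares were 5.11% and 3.47%. The arrays did not overlap for 31 higher and 4 lower, beside 22.0% and 13.5% of all genes. The median difference was 0.24 (0.21 in M1 replicate 1, 0.28 in replicate 2), beside 0.01 (0.05 and -0.01) over all genes. The same shares over all genes stand beside the counts of the lists that follow. All lists were chosen with earlier results of these data known, so their counts are descriptions. Of the 13 genes of Hsp90 and its co-chaperones 6 were higher and 0 lower, with a median of 0.28. CPR6, a peptidyl-prolyl isomerase that binds Hsp90, read 10.23 and 10.29 in M1, against 9.84 and 9.73 in WT. STI1, which hands clients from Hsp70 to Hsp90, read 9.89 and 9.86 in M1, against 9.49 and 9.35 in WT. AHA1, which stimulates the Hsp90 ATPase, differed by 0.38 and CDC37, the adaptor for kinases, by 0.36. HSC82, the constitutive Hsp90, differed by 0.42 (SE 0.13), and as HSP82 and HSC82 are near-identical copies, their probe sets may share signal.

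The cytosolic Hsp70, Hsp40 and disaggregase genes lay above the WT mean in both M1 arrays for 10 of 11 measured members. SIS1, an essential Hsp40, read 9.49 and 9.57 in M1, against 8.87 and 8.59 in WT (0.80, SE 0.13). HSP104, the disaggregase, read 8.22 and 8.20 in M1, against 7.59 and 7.24 in WT (0.79, SE 0.14). SSE2, a nucleotide exchange factor of Hsp70, read 7.90 and 8.24 in M1, against 7.50 and 7.47 in WT. SSA1 and SSA2, near-identical cytosolic Hsp70 genes, differed by 0.42 and 0.49. In this list 5 genes were higher with an unadjusted p below 0.05, and the arrays of 9 did not overlap in the higher direction. SNL1, an Hsp70 cochaperone of the ER membrane, was lower by this measure (-0.34), and SSA4, the Hsp70 gene known for its strong induction by heat, read the same (0.00).

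Chaperones of the organelles followed in part. HSP78, the mitochondrial relative of Hsp104, read 6.56 and 6.62 in M1, against 5.79 and 5.69 in WT (0.85, SE 0.13). HSP60, the mitochondrial chaperonin, differed by 0.45 and MDJ1, an Hsp40, by 0.38, while SSC1, the main mitochondrial Hsp70, differed by 0.08 and MGE1, its exchange factor, by -0.32. In the ER, SCJ1, an Hsp40, read 8.16 and 8.22 in M1, against 7.77 and 7.76 in WT, KAR2, the Hsp70 of that compartment, differed by 0.39 and ERO1, which forms disulphides, by 0.32. Of the 11 ER folding genes 10 differences were positive, with 3 genes higher and 0 lower with an unadjusted p below 0.05. The 8 genes of the cytosolic chaperonin CCT did not share this, with a median of 0.02 (0.13 in replicate 1, -0.07 in replicate 2) and 0 genes with an unadjusted p below 0.05.

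Small heat shock and membrane stress proteins lay the other way in part, mainly in M1 replicate 2. Their 9 genes had a median of -0.37 (-0.10 in replicate 1, -0.50 in replicate 2), with 0 higher and 3 lower with an unadjusted p below 0.05. Beside HSP30 these were SPI1, a cell wall protein, at 8.06 and 7.54 in M1, against 8.34 and 8.52 in WT, and HSP26, a small heat shock protein, at 6.89 and 6.63 in M1, against 7.01 and 7.24 in WT. MRH1, a membrane protein related to HSP30, read 11.68 and 10.21 in M1, against 11.20 and 11.61 in WT, so its M1 arrays lay on both sides of WT. HSP12, a marker of the general stress response, read 12.70 and 12.66 in M1, against 12.51 and 12.69 in WT. Of the 9 differences 6 were negative and 3 positive, and the positive ones were those of HSP42 (0.18), HSP12 (0.08) and HSP31 (0.04).

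Targets of Msn2 and Msn4, the general stress activators, were on the higher side in part. Of 25 genes 9 were higher and 0 lower with an unadjusted p below 0.05, with a median of 0.22 (0.32 in replicate 1, 0.21 in replicate 2). TSL1, a subunit of trehalose synthase, read 8.36 and 8.06 in M1, against 7.64 and 7.61 in WT. GLK1, glucokinase, read 11.00 and 10.78 in M1, against 10.44 and 10.42 in WT. Other members of the list read level, such as CTT1, cytosolic catalase (-0.01), GSY2, glycogen synthase (0.00), and GPD1, glycerol 3-phosphate dehydrogenase (0.07). The trehalose and glycogen list, which shares members with it, had positive differences for all 17 genes (0.00 to 0.82), with 7 higher and 0 lower with an unadjusted p below 0.05 and 10 that did not overlap. Both the synthesis gene TPS1 (0.43) and the trehalase genes ATH1 (0.45) and NTH1 (0.36) were among them.

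Lysine synthesis had the highest median of the 53 lists described here. All 10 differences were positive, 7 genes were higher and 0 lower with an unadjusted p below 0.05, 8 did not overlap, and the median was 0.33 (0.39 in replicate 1, 0.27 in replicate 2). LYS9, saccharopine reductase, read 10.54 and 10.06 in M1, against 9.51 and 9.53 in WT (0.78, SE 0.17). LYS1, which makes lysine in the last step, read 9.95 and 9.67 in M1, against 9.19 and 9.27 in WT (0.58, SE 0.13). The homocitrate synthases LYS20 and LYS21, near-identical enzymes of the first step, differed by 0.54 and 0.47. LYS4, homoaconitase, differed by 0.31, LYS12, homoisocitrate dehydrogenase, by 0.34, and LYS14, the activator of the pathway, by 0.32. LYS2, aminoadipate reductase, did not overlap either (0.24), while LYS5, which activates Lys2, and ARO8, an aminotransferase, did. The 39 genes of other amino acid pathways had a median of 0.07 with 3 higher and 0 lower, among them TRP3 of tryptophan synthesis (0.41).

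**Figure D3:**
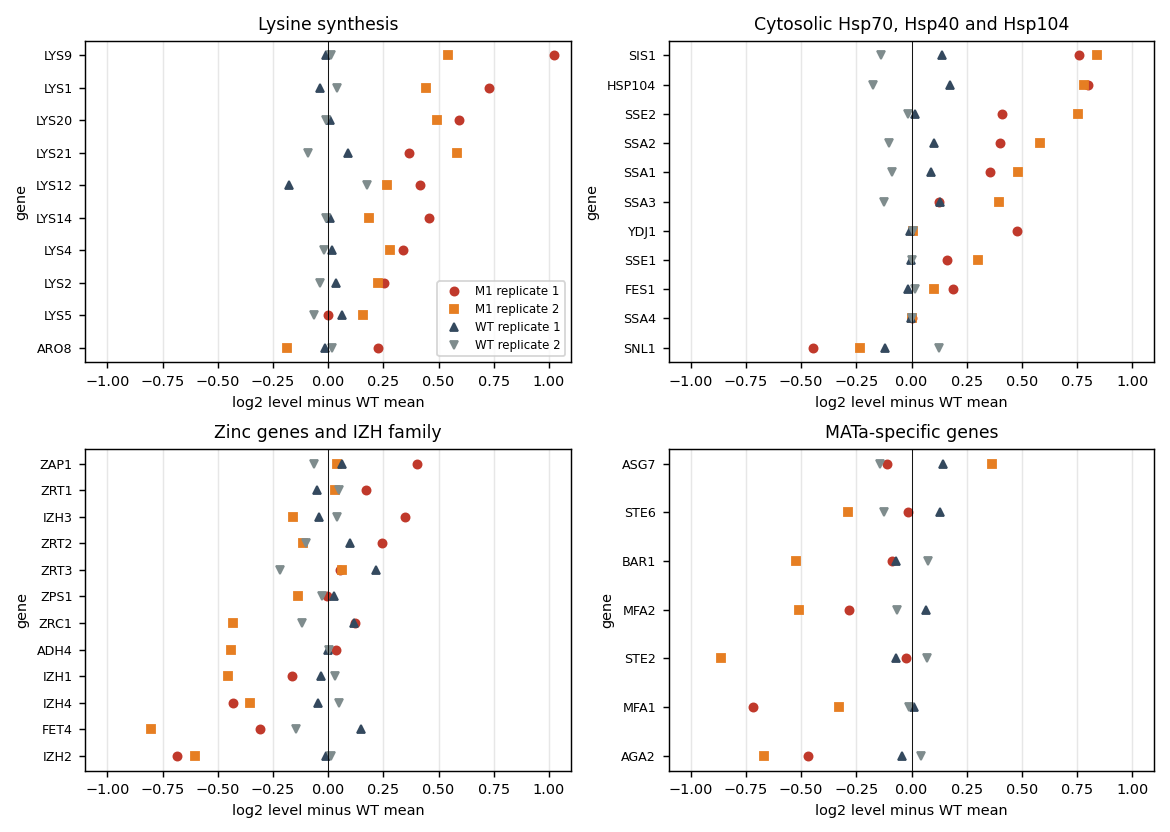
Log2 level of each array minus the WT mean for the members of 4 lists, M1 replicate 1 as red circles, M1 replicate 2 as orange squares and the WT arrays as triangles. In the lysine panel all 10 mean differences are positive, and in the zinc and MATa panels the M1 replicate 2 squares lie farther left than the replicate 1 circles for most genes.

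Genes known as targets of the retrograde response, by which a mitochondrial defect signals to the nucleus, included DLD3, a D-2-hydroxyglutarate dehydrogenase, at 8.47 and 8.35 in M1, against 7.74 and 7.69 in WT. CIT2, peroxisomal citrate synthase and the classic target of that response, read 9.72 and 9.70 in M1, against 9.19 and 9.13 in WT (0.55, SE 0.12). Their list of 8 genes joins 2-methylcitrate genes such as PDH1 to retrograde targets and regulators. DLD3, CIT2 and PDH1 were the 3 higher with an unadjusted p below 0.05, 0 were lower, and the median was 0.10. CIT3 and ICL2, also in the list, differed by 0.22 and -0.02. The regulators RTG1, RTG2 and RTG3 were among the other members, at -0.13, -0.03 and -0.15. RTG3 read 7.07 and 5.91 in M1, against 6.60 and 6.66 in WT, so its M1 arrays lay on both sides of WT. RTG1 was dim, with a mean level at percentile 2.86 of all genes. In the TCA cycle IDH1, a subunit of isocitrate dehydrogenase, differed by 0.46, ACO1, aconitase, by 0.48, and CIT1, mitochondrial citrate synthase, by 0.48, and these were the 3 of 14 higher, with 0 lower. The median of the TCA list was 0.12, from 0.23 in replicate 1 and 0.01 in replicate 2.

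Subunits of the respiratory chain and ATP synthase lay lower, mainly in M1 replicate 2. Of 29 genes 23 differences were negative, 0 were higher and 3 lower with an unadjusted p below 0.05, and the median was -0.14 (-0.03 in replicate 1, -0.31 in replicate 2). COX7, a subunit of cytochrome oxidase, read 9.67 and 9.74 in M1, against 10.21 and 10.11 in WT. QCR9, a subunit of the cytochrome bc1 complex, read 9.61 and 8.99 in M1, against 9.66 and 9.91 in WT, and lay far lower in replicate 2 than in replicate 1. The 67 mitochondrial ribosomal proteins had a median of -0.07 with 1 higher and 1 lower, and the 21 cytochrome oxidase assembly genes a median of 0.02 with 1 higher and 1 lower, COA2.

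Carbon source genes showed single members apart from their lists. PCK1, the committed enzyme of gluconeogenesis and repressed by glucose, read 7.66 and 7.91 in M1, against 7.22 and 6.94 in WT (0.71, SE 0.14). FBP1, the other enzyme particular to the pathway, read 4.08 and 3.78 in M1, against 3.96 and 3.84 in WT. FBP1 was dim, with a mean level at percentile 4.07 of all genes. ALD6 and ALD4, the cytosolic and mitochondrial acetaldehyde dehydrogenases, differed by 0.54 and 0.49 (SE 0.11 for both), although the other probe set of ALD6 differed by -0.16. HXT2, a glucose transporter, differed by 0.44 in a list of 9 hexose sensors and transporters whose median was -0.07. Glycolysis and fermentation genes, 22 in all, had a median of 0.02, with GLK1 and PYK2, a minor pyruvate kinase (0.40), higher and 0 lower.

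Mating genes are markers of the cell type, and they are given here only as differences between M1 and WT. The labels do not name the mating type, and the MATa-specific genes were the list with the lowest median, -0.40 (-0.11 in replicate 1, -0.51 in replicate 2), with 0 of 7 higher and 3 lower with an unadjusted p below 0.05. AGA2, the agglutinin subunit, read 8.68 and 8.48 in M1, against 9.10 and 9.19 in WT (-0.57, SE 0.12). MFA1, an a-factor gene, read 11.76 and 12.15 in M1, against 12.49 and 12.47 in WT (-0.52, SE 0.15), and MFA2 differed by -0.40. STE2, the alpha-factor receptor, read 9.38 and 8.54 in M1, against 9.34 and 9.47 in WT, so it was near WT in replicate 1 alone. The 4 MATalpha-specific genes differed by -0.21 to 0.17 with 0 with an unadjusted p below 0.05, and 14 sporulation genes had a median of 0.03 with 0. The 10 haploid-specific genes had a median of -0.07, with 0 higher and 2 lower, FAR1 (-0.41) and FUS3 (-0.47). Of the 3 probe sets of FUS3, 1 was higher in M1 and 2 lower. The 8 genes used as auxotrophic markers ranged from -0.30 (CAN1) to 0.24 (LYS2) with 0 with an unadjusted p below 0.05. In RNA of a whole culture, fewer cells of a kind and less RNA per cell cannot be told apart.

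Genes of the late cell cycle had negative medians. The CLB2 cluster, transcribed at the start of mitosis, had 0 of 13 genes higher and 4 lower with an unadjusted p below 0.05, with a median of -0.19 (-0.10 in replicate 1, -0.20 in replicate 2). Beside CLB1 these were ALK1, a haspin kinase, at 7.05 and 6.93 in M1, against 7.31 and 7.40 in WT, SWI5, an activator of M to G1 genes, at 7.42 and 6.86 in M1, against 7.56 and 7.88 in WT, and HST3, a histone deacetylase (-0.39). CLB2 itself differed by -0.31 without reaching that threshold. Of 10 genes expressed from mitosis to G1, DSE2, a cell separation enzyme, read 11.24 and 10.49 in M1, against 11.41 and 11.64 in WT. The median of that list was -0.27, from -0.03 in replicate 1 and -0.49 in replicate 2, and SCW11, another separation enzyme, read 8.71 and 7.69 in M1, against 8.65 and 9.03 in WT. The 15 genes of the G1 to S transition had a median of 0.07, with 1 higher and 2 lower, one of them the G1 cyclin CLN1 (-0.29).

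Zinc genes and the related IZH membrane proteins had 0 of 12 higher and 4 lower with an unadjusted p below 0.05, with a median of -0.11 (0.04 in replicate 1, -0.26 in replicate 2). Besides IZH2 these were IZH4, at 6.51 and 6.58 in M1, against 6.89 and 6.99 in WT, IZH1 (-0.31) and FET4, a low affinity transporter of iron and zinc, at 6.27 and 5.78 in M1, against 6.73 and 6.43 in WT. IZH3 differed by 0.09, and ZAP1 and ZRT1, the zinc-responsive activator and the high affinity transporter it controls, lay higher in replicate 1 than in either WT array. The median turned positive when M1 replicate 2 was left out.

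Genes of surface proteins had medians below WT in M1 replicate 2 and not in replicate 1. The 14 cell wall proteins had a median of 0.05 in M1 replicate 1 and -0.48 in replicate 2, and PIR3 read 9.42 and 8.32 in M1, against 9.37 and 9.69 in WT. CCW14, another mannoprotein, read 12.97 and 12.12 in M1, against 12.98 and 13.01 in WT. The 13 drug and polyamine exporters had medians of 0.01 and -0.32. In sulphur metabolism, 24 genes with a median of -0.16, CYS3 of cysteine synthesis was higher (0.43), and MET6, methionine synthase, read 8.95 and 8.13 in M1, against 9.16 and 9.32 in WT. Of 18 purine and one-carbon genes 0 were higher and 3 lower, with medians of 0.07 in M1 replicate 1 and -0.22 in replicate 2, among them GCV1 of the glycine cleavage system, at 8.80 and 8.60 in M1, against 9.08 and 9.50 in WT. Among 30 subunits of the RNA polymerases 0 were higher and 5 lower, with medians of 0.02 in M1 replicate 1 and -0.25 in replicate 2. The median of both lists turned positive without M1 replicate 2. RPB7, a subunit of RNA polymerase II, read 9.24 and 8.77 in M1, against 9.51 and 9.74 in WT.

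**Figure D4:**
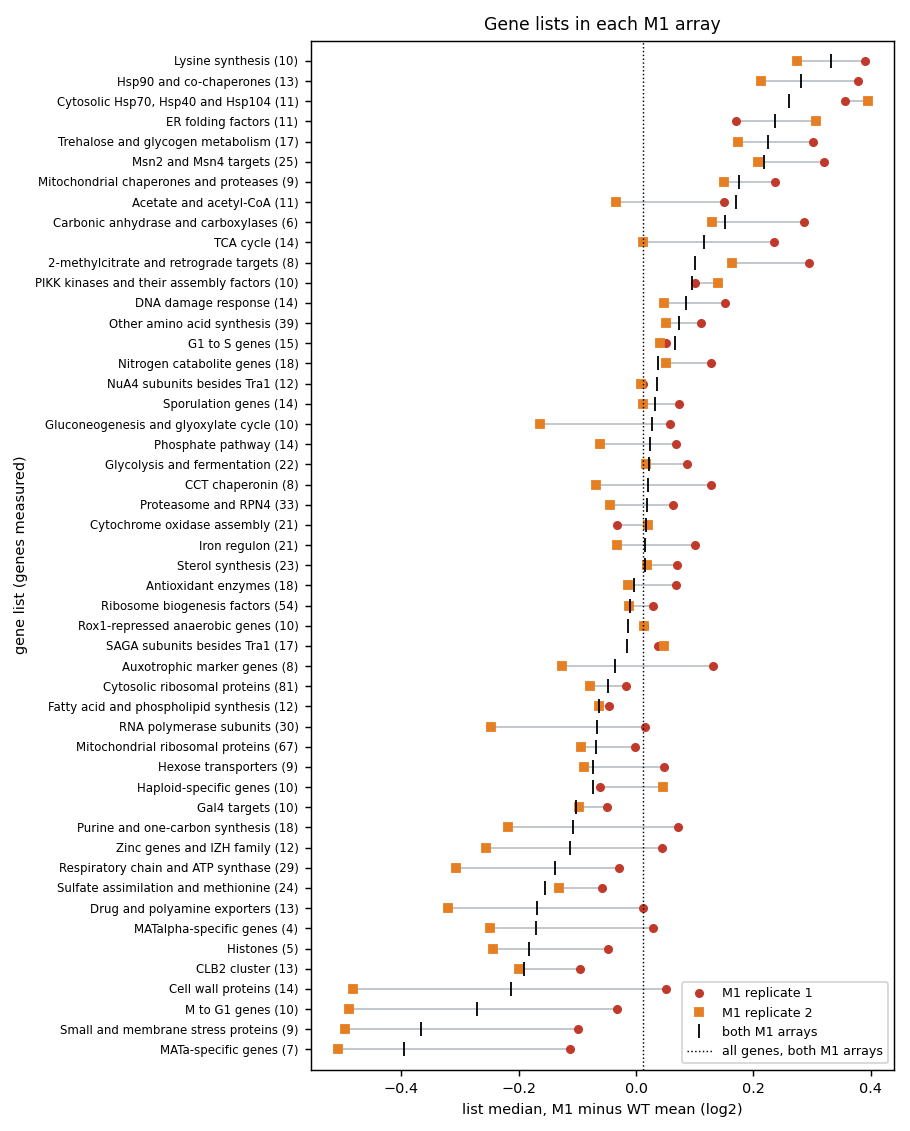
Median difference from the WT mean (log2, horizontal axis) for 50 gene lists, with the number of genes measured in brackets, for M1 replicate 1 (red circles), M1 replicate 2 (orange squares) and both (black bars), and a dotted line at the median of all genes. Lysine synthesis is at the top, MATa-specific genes at the bottom with -0.51 in replicate 2, and the arrays lie farthest apart for cell wall proteins.

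Ribosome and protein turnover genes had medians near that of all genes. The 81 cytosolic ribosomal proteins had a median of -0.05, with 1 higher and 3 lower with an unadjusted p below 0.05, among them RPS27A (-0.48) and RPL33B (-0.33), each of which has a near-identical copy. The 54 ribosome biogenesis factors had a median of -0.01 with 0 higher and 1 lower, RLP7. The 33 proteasome genes had a median of 0.02, with RPN6 and RPT2 higher (0.27 each). Sterol synthesis (23 genes), the iron regulon (21), phosphate (14), nitrogen (18), antioxidant (18), DNA damage (14) and Rox1-repressed (10) lists had medians between -0.01 and 0.09, with at most 2 genes higher and 1 lower in each. DAL4, the allantoin permease, was the lowest nitrogen gene, at 5.003 and 5.23 in M1, against 5.63 and 5.78 in WT.

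RNA genes that encode no protein separated the M1 arrays from each other. Of 91 tRNA genes, 85 read below both WT arrays in M1 replicate 1 and 87 above both WT arrays in replicate 2, with medians of -0.49 and 0.34 against the WT mean. Replicate 2 exceeded replicate 1 in 90 of the 91, by a median of 0.91, against a median of -0.02 for the WT duplicates. The 57 snoRNA genes, which guide ribosomal RNA modification, had medians of -0.21 and 0.19. RDN37-1, the precursor of the large ribosomal RNAs, read 10.84 and 13.52 in M1, against 12.83 and 12.79 in WT, and M1 replicate 1 was the lower at all 7 of its probe sets. RDN18-1, the 18S RNA, read 8.86 and 11.34 in M1, against 10.004 and 10.19 in WT. The 5S genes did not fall below WT in M1 replicate 1. RDN5-3 lay above WT by a like amount in both M1 arrays. RDN5-1 read 11.84 and 12.35 in M1, against 11.25 and 11.26 in WT. Its other probe set read 10.08 and 11.10 in M1, against 10.06 and 9.92 in WT. RDN5-1 was thus higher in replicate 2 than in replicate 1 at both probe sets, as RDN37-1 and RDN18-1 were. Whether the 3′ labelling measures the abundance of such RNAs was not tested, and the copies of these genes share sequence.

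Messages also differed between the M1 arrays. A difference of at least 1 between the duplicates was found for 61 genes higher in replicate 2, of which 41 were tRNA and 14 protein-coding genes, and for 39 higher in replicate 1, all protein-coding, against 0 genes in WT and 0 in M8. PUF3, which binds messages of mitochondrial proteins, read 6.15 and 4.63 in M1, against 4.75 and 4.72 in WT. Its mean level was at percentile 12.9 of all genes. TUP1, a general corepressor, read 8.45 and 7.30 in M1, against 8.30 and 8.47 in WT, and KAP95, an importin, read 8.86 and 7.68 in M1, against 8.61 and 8.59 in WT. Replicate 1 lay far above WT for PUF3, and replicate 2 far below WT for TUP1 and KAP95. PDR12, an exporter of weak acids, read 8.06 and 6.90 in M1, against 8.0 and 8.29 in WT. In the other direction MPT5, a Puf-family repressor, read 7.44 and 9.22 in M1, against 8.26 and 8.29 in WT, and VLD1, a subunit of a vacuolar ubiquitin ligase, read 5.003 and 6.53 in M1, against 6.04 and 6.004 in WT. Both lay below WT in replicate 1 and above WT in replicate 2.

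Counted by single arrays, M1 replicate 1 lay at least 0.5 above the WT mean for 92 genes and below it for 105, and M1 replicate 2 above it for 172 and below it for 318. The arrays shared 24 of the higher genes, which is 26.1% of those in replicate 1 and 14.0% of those in replicate 2. They shared 15 of the lower genes, which is 14.3% and 4.72%. Both M1 arrays were set against the same WT mean, so the spread of WT adds to this sharing. With a different WT array subtracted from each M1 array, the differences correlated across genes at -0.12 by number. With the WT numbers crossed, the correlation was 0.16. For 21 genes the M1 arrays lay at least 0.5 from WT on opposite sides, of which 13 were tRNA genes. Replicate 2 was the higher in 19 of these, and replicate 1 in SRP40, a nucleolar protein, and YNL190W, a cell wall protein. No chromosome moved as a whole, with medians over the nuclear chromosomes between -0.004 and 0.12 in replicate 1 and between -0.09 and 0.05 in replicate 2.

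Differences went with gene length, a relation looked at after the data were seen. Among 881 protein-coding genes of up to 600 bases, 1.36% were higher and 8.17% lower with an unadjusted p below 0.05, and the median was -0.08 (-0.06 in M1 replicate 1, -0.07 in replicate 2). Among the 2014 genes above 1200 and up to 2400 bases, 7.15% were higher and 1.84% lower, with a median of 0.06. The WT duplicates also differed by length, with replicate 2 above replicate 1 by 0.09 in the shortest class and below it by 0.05 in the 844 genes above 2400 bases. The respiratory chain genes are short (median 444 bases), and the trehalose and glycogen genes long (median 2127 bases), the lysine genes lie between (1332 bases), and the part of gene length in their values was not tested.

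**Figure D5:**
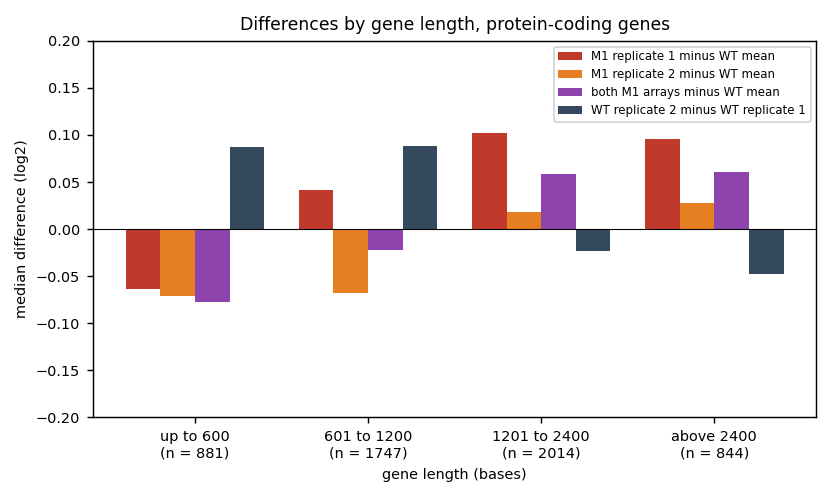
Median difference (log2, vertical axis) over protein-coding genes in 4 classes of gene length, for M1 replicate 1, M1 replicate 2 and their mean minus the WT mean, and for WT replicate 2 minus WT replicate 1. Both M1 arrays are below 0 in the shortest class and above 0 in the 2 longest, and the WT duplicates differ from each other by up to 0.09.

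The other Tra1 mutant of the study gives a setting for these sizes. M8 was compared with the same WT arrays, so its differences from WT are not independent of those of M1. Limma called 0 genes in M1 minus M8 (0%), with 364 with an unadjusted p below 0.05 (6.44%), and 0.289 was the smallest adjusted p. It belonged to RDN5-3, at 9.24 and 9.28 in M1, against 8.23 and 8.20 in M8 (1.05, SE 0.13). CLB1 read 6.25 and 5.99 in M1, against 6.79 and 6.83 in M8 (-0.69, SE 0.14), and NCE103 read 9.28 and 9.11 in M1, against 8.73 and 8.76 in M8 (0.45, SE 0.12). In these genes the M1 and M8 arrays did not overlap. HSP82 differed between the mutants by -0.001 (SE 0.13), PDH1 by 0.08 (SE 0.15) and HSP30 by -0.11 (SE 0.13).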

How the data were processed

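The table that the authors deposited holds log2 levels for each probe set. The submitters' processing notes name RMA and oligo, while versions, settings and genome build are not given in the sources used here. No coordinates are therefore printed. RMA gives no detection call, and precision is limited by the number of arrays. The 9275 probe sets had 1 gene in 6504 cases, several in 328 and none in 2443, and all 6504 matched the R64 gene table, which gave names, RNA classes and gene lengths. For 315 genes the probe set with the highest mean was taken.

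Means of the groups were fitted over the 6 arrays in R 4.3.3 by limma 3.58.1 (lmFit, eBayes, 3 residual degrees of freedom), with two-sided p adjusted by Benjamini-Hochberg over 5656 genes and a call at 0.05. Tables were made with Python 3.11.15 and pandas 2.3.3. The fit was tested on simulated data that gave every group of a gene the same spread. The larger spread of the M1 duplicates was not simulated. An exact permutation of 2 against 2 arrays cannot go below p = 0.333. The members and the 53 lists were chosen with earlier results of these data known. The lists were given no set test and are described by counts and medians. The tRNA list found 20 symbols, not all of them tRNA genes, and was replaced by the 91 genes of that class.

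Genes to name were drawn by rule, and not all of the genes drawn are printed in the text. Drawn were the 12 genes with the smallest p in each direction among those that do not overlap. The 8 genes with the largest difference between the M1 arrays in each direction were drawn where WT arrays differed by under 0.3. From the lists came up to 5 members of each by smallest p, and all members of lists of up to 10. TRA1, GAL4 and the Gal4 targets were added. Genes with a gap of at least 0.5, those with M1 arrays on opposite sides, and the further list members CDC37, SNL1, SSA4, CTT1, GSY2, GPD1, NTH1, CLB2, IZH3 and ZRT1 were chosen after their values were seen. The labels number the arrays 1 and 2 in each group. The series text states a completely randomised design, so the numbers were not taken to pair the samples. Replicate 2 minus replicate 1 correlated across genes at -0.306 between M1 and WT and at -0.111 between M1 and M8. Between WT and M8 it was 0.297. Whether the numbers mark a shared batch was not tested. Alternatives were other scalings, filters, probe set rules, spreads, blocks by number and each array left out.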

Additional observations from a re-analysis of the deposited data

Results flagged for a closer look

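Some probe sets that no comparison above used had M1 arrays clear of the WT arrays. Of the 2443 probe sets with no gene in the platform table, 4 had both M1 arrays at least 0.5 above both WT arrays and 15 had them at least 0.5 below. Of the 328 probe sets with several genes, 3 were above in this way and 0 below. Over the 5656 genes, 18 (0.318%) were above and 9 (0.159%) below. A limma fit over all 9275 probe sets called 0 of either kind, and the smallest adjusted p was 0.0731. With an unadjusted p below 0.05, 57 of the 2443 with no gene were higher and 84 lower. In the fit over the 5656 genes these counts were 289 (5.11%) and 196 (3.47%). The longest run of probe set numbers, 5 in a row with no gene, was lower at every number, from -1.63 to -1.03, and the third of these read 8.89 and 9.13 in M1, against 10.50 and 10.45 in WT, with 8.95 and 8.96 in M8. These probe sets are unnamed here.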

How the results depend on the processing

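The 0 calls became 3 (NCE103, PDH1 and RDN5-3) with median centring, with dim genes left out, with the mean of a gene's probe sets and with eBayes with trend and robust, and 2 (NCE103 and PDH1) with RNA genes other than messages left out and with array weights. They stayed at 0 with M1 and WT arrays alone, quantile normalization, all probe sets, an ordinary linear model and each WT or M8 array left out, and leaving out each array in turn gave 0 to 382. With the replicate number as a block, limma called 0, with 255 genes higher and 150 lower with an unadjusted p below 0.05. With the M1 numbers crossed, chosen after seeing the data, 5 were called, 4 higher and 1 lower, and 307 were lower at an unadjusted p. The 289 higher and 196 lower at an unadjusted p became 163 and 100 with M1 and WT arrays alone, 149 and 111 with array weights, and 118 to 710 and 65 to 909 with each array left out. Without WT replicate 2 they were 118 and 65. Without an M8 array they were 163 and 100. Leaving out each array moved the genes without overlap from 1245 higher and 764 lower to between 1245 and 2581 and between 764 and 2371, and those without WT replicate 2 were 1836 and 1200, since fewer arrays overlap less. Those with a gap of at least 0.5 moved from 18 and 9 to between 18 and 95 and between 9 and 195, with 25 and 14 without WT replicate 2. Lists with a median of at least 0.2 in size numbered 10, and 18 without M1 replicate 1. The SD of the difference between the M1 arrays was 0.45 when each was taken from the WT array of its number. Without M1 replicate 1 the sign turned for RDN37-1 (0.71), VLD1 (0.50), NOP19 (0.55), SUF17 (0.63), YNCD0028W (0.52), YNCE0005W (0.51) and YNCJ0023C (0.52), which without M1 replicate 2 were at -1.97, -1.02, -0.60, -0.69, -0.61, -0.55 and -0.53. Without M1 replicate 2 it turned for RDN18-1 (-1.24) and MPT5 (-0.83), which without M1 replicate 1 were at 1.24 and 0.95. The cause was not tested. The medians of the Hsp90, Hsp70, mitochondrial and ER chaperone, Msn2 and Msn4, trehalose, lysine, CLB2, MATa, M to G1 and respiratory chain lists kept their sign in these scalings and with each M1 or WT array left out.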
